A study of Mus musculus with 6 samples.

Results

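Enteric glia genes were examined in mouse colon by a fixed list of 6 symbols, S100b, Sox10, Gfap, Foxd3, Erbb3 and Cdh19, out of 24517 genes with deposited read counts. The series held 3 colon libraries from NSD2∆IE mice, which lack the histone methyltransferase NSD2 in the intestinal epithelium through Cre driven by the Villin promoter. It also held 3 colon libraries from NSD2fl/fl mice, which carry the floxed gene without its deletion. All animals were on a C57BL/6J background and received HFCD, a high-fat and high-cholesterol diet, for 16 weeks per the labels, while the methods of the study state a longer feeding period. Villin is an epithelial gene, so the deletion was not directed at glia. The labels do not say that the libraries of a group came from separate animals, and p-values measure only the spread between these samples.

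Enteric glia are neural crest cells that accompany the neurons of the myenteric and submucosal plexuses and extend into the muscle layers and the mucosa. SOX10 and FOXD3 are transcription factors of the neural crest, and SOX10 is needed to form and keep the glial lineage. ERBB3 is the receptor through which glial precursors answer neuregulins, and it signals as a partner of ERBB2. S100B is a small calcium-binding protein, GFAP is an intermediate filament protein and CDH19 is a cadherin that mediates adhesion, and all of these are used to stain glia or their precursors.

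S100b, Sox10, Gfap and Cdh19 were higher in every NSD2∆IE library than in every NSD2fl/fl library, by 2.01-fold (Gfap) to 2.75-fold (Sox10) in the fit. Foxd3 had a fitted change in the same direction, but its groups overlapped. Erbb3 was far more abundant than the others, and its groups overlapped with a fitted change in the opposite direction. Counts from whole colon do not show which cells made the Erbb3 RNA, so this change cannot be assigned to glia or to other cells. None of the 6 genes had an adjusted p under 0.05 with edgeR's quasi-likelihood test, against 0.0306% of the 16347 genes tested (0.00612% higher and 0.0245% lower). At an unadjusted p under 0.05 there were 4 of the 6, all higher, against 8.15% of all genes higher and 2.96% lower. The same 4 had a log2 fold change of at least 1, against 5.21% of all genes. With DESeq2, 3 of the 6 had an adjusted p under 0.05 (S100b, Sox10 and Cdh19), against 2.52% of its 16894 genes higher and 2.79% in either direction.

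The libraries had between 38041832 and 38604680 counts. Nsd2 was checked first and lay between 47.8 and 68.9 CPM (read counts scaled to a common library size) in NSD2fl/fl and between 23.1 and 27.5 CPM in NSD2∆IE. Xist had at most 4 counts in an NSD2fl/fl library and at least 21217 in an NSD2∆IE library, and 4 genes of the Y chromosome had at most 1 count each in NSD2∆IE, so all NSD2fl/fl libraries had a male and all NSD2∆IE libraries a female pattern, although the methods describe male littermates. Genotype and sex therefore cannot be told apart here. The 6 glia genes all lie on autosomes. The libraries also divided along their first principal component (51.0% of the variance) into NSD2fl/fl replicates 1 and 3 with NSD2∆IE replicate 1, and NSD2fl/fl replicate 2 with NSD2∆IE replicates 2 and 3. Hoxb13, a gene of the most distal hindgut, had 310.0 to 365 CPM in the first set and 0.706 to 26.2 CPM in the second, and values within the sets are given below.

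The genomic windows before the start sites of S100b, Gfap and Foxd3 are shown because only these members matched the RefSeq promoter table of GRCm38.p6. Sox10, Erbb3 and Cdh19, the other 3 of the 6 genes, had no entry. S100b and Gfap were higher in every NSD2∆IE library while Foxd3 overlapped. Each line gives the 250 bases before the RefSeq start on the strand of the gene, chr10:76253586-76253835 for S100b (+), chr11:102897201-102897450 for Gfap (-) and chr4:99656049-99656298 for Foxd3 (+).
S100b: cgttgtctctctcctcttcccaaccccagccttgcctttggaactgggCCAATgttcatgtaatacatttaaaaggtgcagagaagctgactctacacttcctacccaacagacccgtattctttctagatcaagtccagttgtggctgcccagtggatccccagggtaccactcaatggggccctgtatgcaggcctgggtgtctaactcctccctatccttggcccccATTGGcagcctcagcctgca
Gfap: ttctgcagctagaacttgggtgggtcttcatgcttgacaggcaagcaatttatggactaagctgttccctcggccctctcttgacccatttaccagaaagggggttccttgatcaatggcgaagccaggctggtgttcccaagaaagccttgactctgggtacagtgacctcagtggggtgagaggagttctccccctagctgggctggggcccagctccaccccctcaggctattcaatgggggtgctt
Foxd3: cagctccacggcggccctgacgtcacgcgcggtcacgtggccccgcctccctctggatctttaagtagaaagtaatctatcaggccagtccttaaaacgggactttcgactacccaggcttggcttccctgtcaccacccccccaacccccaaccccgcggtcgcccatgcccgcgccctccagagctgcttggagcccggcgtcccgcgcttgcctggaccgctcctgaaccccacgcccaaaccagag
Capitals mark the letters CCAAT, the CCAAT box, on either strand. It was found at 202 bases (forward) and 20 bases (reverse) before the start of S100b and in neither of the other windows, and 33.8% of 32851 windows of this length hold it. The other letters searched on both strands were ACAAAG and AACAAT, which are core letters bound by SOX proteins, TTCNNNGAA of STAT factors and TATAAA. None of these was in the 3 windows, and they were in 16.5%, 9.42%, 7.02% and 12.4% of all windows. No searched motif overlapped another in these windows. No annotated exon lies in these windows, and that of Gfap lies inside the span of the gene in GENCODE, which begins further upstream. The Foxd3 window was 65.6% G and C, that of S100b 53.6% and that of Gfap 55.6%, beside a median of 52.4% over all windows.

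The transcription factors were described first. Sox10 (ENSMUSG00000033006.10, chr15:79154908-79165240, minus strand, GRCm38) had 135, 62 and 98 counts in the control libraries, in order of replicate number, and 191, 366 and 332 in the NSD2∆IE libraries. On the CPM scale NSD2fl/fl ran 3.51, 1.75 and 2.75 and NSD2∆IE ran 4.82, 9.23 and 8.0. The groups did not overlap, and NSD2∆IE replicate 1 lay well below the other libraries of its group. Means were 2.67 ± 0.88 and 7.35 ± 2.28 CPM (SD, n = 3 per group), with a log2 fold change of 1.46 (SE 0.352, edgeR unadjusted p of 0.00464, adjusted p of 0.302).

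Foxd3 (ENSMUSG00000067261.4, chr4:99656299-99658622, plus strand), which acts early in the neural crest and in glial precursors, was the scarcest of the 6. It had 31, 32 and 18 counts in NSD2fl/fl and 31, 80 and 53 in NSD2∆IE, or 0.805, 0.904 and 0.505 CPM against 0.782, 2.02 and 1.28 CPM. NSD2∆IE replicate 1 lay below 2 NSD2fl/fl libraries, and the other libraries of its group lay above all 3. The log2 fold change was 0.88 (95% interval -0.19 to 1.95, edgeR adjusted p of 0.531). Its lowest count, 18, has an exact Poisson interval of 10.7 to 28.4, which covers counting error only.

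**Figure D1:**
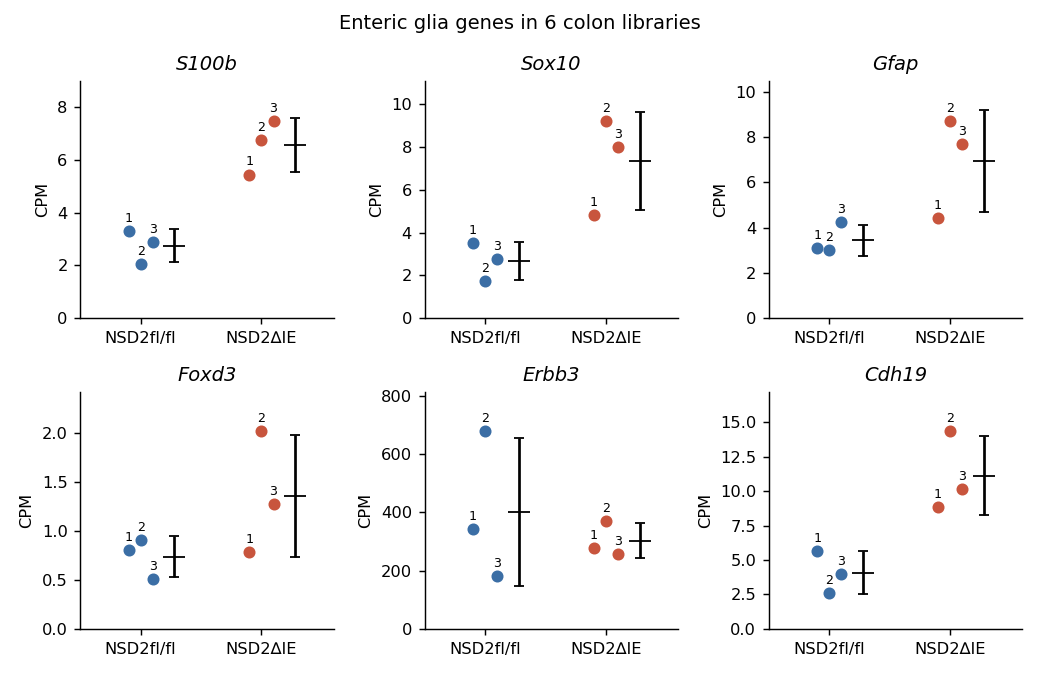
Level of each of the 6 enteric glia genes in CPM (y axis, from 0, a scale of its own per gene) in the NSD2fl/fl (blue) and NSD2∆IE (red) libraries, numbered by replicate, with the mean and SD of each group in black. S100b, Sox10, Gfap and Cdh19 do not overlap between the groups, Foxd3 and Erbb3 do, and Erbb3 ranges from 181 to 677 CPM.

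S100b (ENSMUSG00000033208.7, chr10:76253853-76261159, plus strand) had the smallest unadjusted p of the 6. It had 127, 73 and 103 counts in NSD2fl/fl and 216, 268 and 311 in NSD2∆IE, which gave 3.30, 2.06 and 2.89 CPM against 5.45, 6.76 and 7.5 CPM. The lowest NSD2∆IE library was 5.45 CPM and the highest NSD2fl/fl library 3.30 CPM. The log2 fold change was 1.25 (SE 0.252, 95% interval 0.66 to 1.85, edgeR unadjusted p 0.00175, adjusted p 0.302). S100b overlaps Dip2a, a gene on the other strand, but the annotated exons share 0 bases, and Dip2a had a log2 fold change of 0.09 (adjusted p of 0.848). S100B is also made by adipocytes. Of 5 adipocyte genes tested, 2 (Fabp4 and Retn) had an unadjusted p under 0.05, both higher, against 8.15% of all genes higher. None of the 6 on the list was at 0 in all libraries. Their summed level was 14.9 to 30 CPM in NSD2fl/fl and 32.3 to 72 CPM in NSD2∆IE, and their part in the S100b result was not tested. Adipoq, the adipocyte hormone adiponectin, had 14, 0 and 78 counts in NSD2fl/fl and 102, 150 and 427 in NSD2∆IE. The highest sum in NSD2fl/fl, 30 CPM, was that of replicate 2, where Adipoq had 0 counts, Cidec 18.6 CPM and Fabp4 11.4 CPM.

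Gfap (ENSMUSG00000020932.14, chr11:102887336-102900912, minus strand) had 119, 107 and 151 counts in NSD2fl/fl and 175, 346 and 319 in NSD2∆IE. In CPM these were 3.09, 3.02 and 4.24 against 4.42, 8.73 and 7.69. The separation was narrow, since NSD2∆IE replicate 1 lay just above NSD2fl/fl replicate 3. The log2 fold change of Gfap was 1.01 (SE 0.306, edgeR unadjusted p of 0.0137, adjusted p of 0.326). The unadjusted p was 0.0539 without NSD2∆IE replicate 2. Gfap overlaps a noncoding gene of the other strand, Gm26668, and the use of strand in counting is not given in the sources used here.

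Cdh19 (ENSMUSG00000047216.8, chr1:110888326-110977584, minus strand) had 219, 93 and 141 counts in NSD2fl/fl and 352, 569 and 422 in NSD2∆IE. Scaled to CPM, NSD2fl/fl ran 5.69, 2.63 and 3.96, and NSD2∆IE ran 8.88, 14.4 and 10.2. Every NSD2∆IE library lay above every NSD2fl/fl library, and replicate 2 was the lowest of one group and the highest of the other, as for Sox10. The log2 fold change of Cdh19 was 1.44 (SE 0.33, edgeR unadjusted p of 0.00349, adjusted p of 0.302). The 4 genes without overlap compare with 11.4% of all genes tested that were higher without overlap, and 0 of the 6 were lower in this way, against 7.28%. The same 4 genes were without overlap in raw counts and in FPKM (reads scaled to gene length and library total).

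Erbb3 (ENSMUSG00000018166.8, chr10:128567523-128589652, minus strand) had 13223, 23974 and 6446 counts in NSD2fl/fl and 11015, 14716 and 10684 in NSD2∆IE. These were 343, 677 and 181 CPM against 278, 371 and 258 CPM. The NSD2fl/fl libraries spanned the whole range, with replicate 2 the highest and replicate 3 the lowest of all 6. The log2 fold change of Erbb3 was -0.41 (95% interval -1.47 to 0.66, edgeR adjusted p of 0.767), and it was 0.20 without NSD2fl/fl replicate 2. As a ratio of levels the interval runs from 0.36 to 1.58.

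**Figure D2:**
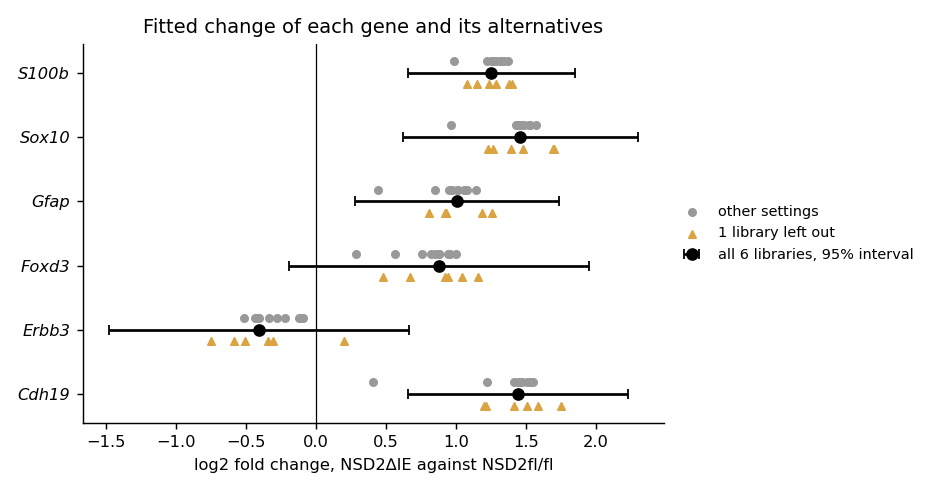
Log2 fold change of each enteric glia gene (x axis, NSD2∆IE against NSD2fl/fl) with all 6 libraries and its 95% interval (black), under other settings (grey circles) and with 1 library left out (gold triangles). The points of S100b, Sox10, Gfap, Foxd3 and Cdh19 all lie above 0, and Erbb3 has 1 point above 0, the fit without NSD2fl/fl replicate 2.

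Levels of different genes were compared only per length. At the exon length of the GENCODE annotation, Erbb3 had an FPKM of 28.1 to 104 over the 6 libraries. S100b followed with 1.28 to 5.46, then Cdh19 with 0.567 to 3.44, Sox10 with 0.53 to 3.11, Gfap with 0.662 to 2.12 and Foxd3 with 0.203 to 0.892. All neighbours below Erbb3 in this order had overlapping ranges. The deposited FPKM values rest on other lengths. For Cdh19 the deposited length was 19295 bases, 4.51 times the 4280 bases of annotated exons, and for Gfap it was 7420 bases against 4218, so their deposited FPKM values (0.126 to 0.764 and 0.376 to 1.21) are low relative to the other genes. The length is the same in all libraries and does not enter the tests on counts. It does enter log2(FPKM + 1), where a longer length gives the pseudocount more weight, and the log2 fold change on that scale was 0.41 for Cdh19 and 0.44 for Gfap.

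The receptor partners of ERBB3 were compared with it in each library. Erbb2, its usual partner, had 191, 388 and 116 CPM in NSD2fl/fl and 164, 201 and 151 CPM in NSD2∆IE, the same order of libraries as Erbb3. Over all 13277 genes of average log2 CPM of at least 1, Erbb2 ranked behind D130037M23Rik alone in likeness to Erbb3 (Pearson r of 0.994 in log2 CPM over 6 libraries). Erbb3 had r of -0.37 with S100b, -0.33 with Sox10 and -0.30 with Cdh19, whereas S100b, Sox10 and Cdh19 had r between 0.964 and 0.981 with each other. Among genes of the epithelium, Erbb3 had r of 0.697 with Epcam, 0.66 with Vil1, 0.60 with Krt20, 0.546 with Krt8 and 0.183 with Cdh1, and it had r of -0.788 with Hoxb13. These coefficients are descriptions over the same 6 libraries, which share the difference between the genotypes.

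Of the 10 other neuregulin and ErbB genes on the list, 8 were tested and 0 had an adjusted p under 0.05 in edgeR or DESeq2. Egfr was the 1 gene with an unadjusted p under 0.05, with a log2 fold change of -0.37, while 2.96% of all genes were lower at this threshold. Nrg1, the neuregulin that acts on glial precursors, had 4.70, 18.8 and 13.4 CPM in NSD2fl/fl and 7.52, 8.07 and 9.23 CPM in NSD2∆IE, all within the NSD2fl/fl range. Erbb4 had at most 1 count in a library. The median log2 fold change of the list was -0.07, beside -0.04 for all genes tested.

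**Figure D3:**
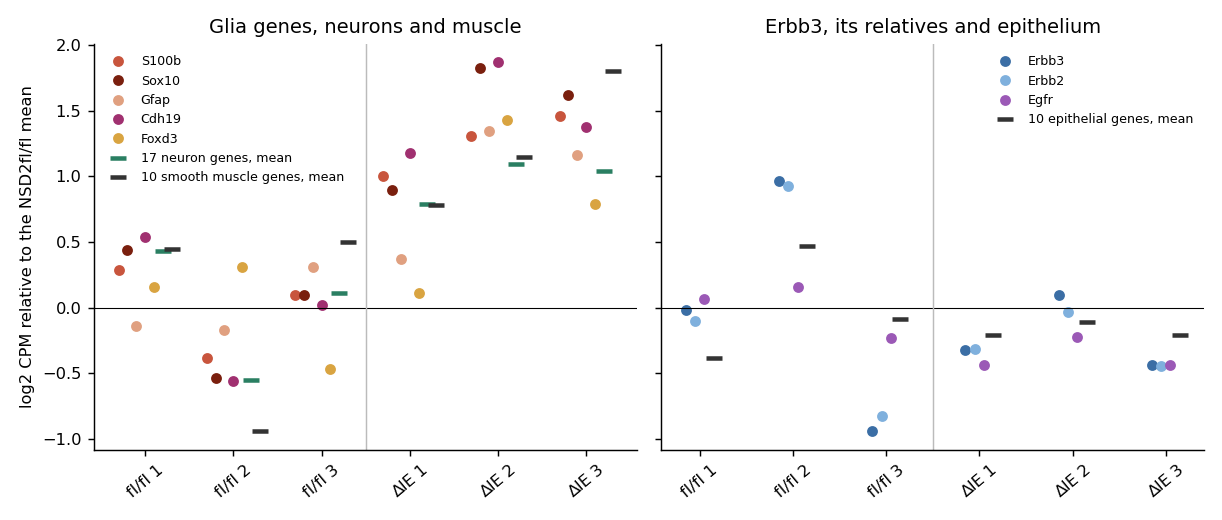
Log2 CPM relative to the NSD2fl/fl mean (y axis) in each library (x axis), left for the glia genes with the mean of 17 neuron and 10 smooth muscle genes, right for Erbb3, Erbb2, Egfr and the mean of 10 epithelial genes. S100b, Sox10 and Cdh19 sit near the neuron mean in NSD2fl/fl and above it in NSD2∆IE, while Erbb3 and Erbb2 move together and peak in NSD2fl/fl replicate 2.

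A wider list of 22 glia genes gave the same direction as the 4 separated genes. All 21 that were tested had a fitted log2 fold change above 0, against 7145 of all 16347 genes tested. The values ran from 0.03 (Entpd2) to 1.86 (Rxrg), with a median of 0.74. At an unadjusted p under 0.05 there were 11, all higher, against 8.15% of all genes higher. No overlap between the groups was seen for 12, all higher, against 11.4% of all genes. An adjusted p under 0.05 was found for 0 (6 higher with DESeq2, against 2.52% of its genes). Lgi4, a secreted glial protein that supports axon ensheathment, had 9.63, 9.21 and 8.65 CPM in NSD2fl/fl and 13.4, 16.4 and 15.6 CPM in NSD2∆IE, a log2 fold change of 0.72 (SE 0.145, edgeR adjusted p of 0.302). Rxrg, a nuclear receptor, and Cmtm5 were scarce, at 0.281 to 0.367 and 0.337 to 0.519 CPM in NSD2fl/fl, and had fitted changes of 1.86 and 1.62. Of the genes tested, 3 are on the X chromosome, and 9 of the 11 genes are autosomal. Fabp7, a fatty acid binding protein of glia, was removed by the filter on low counts. It had 22, 9 and 20 counts in NSD2fl/fl and 6, 8 and 3 in NSD2∆IE, the opposite direction, and its groups did not overlap.

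**Figure D4:**
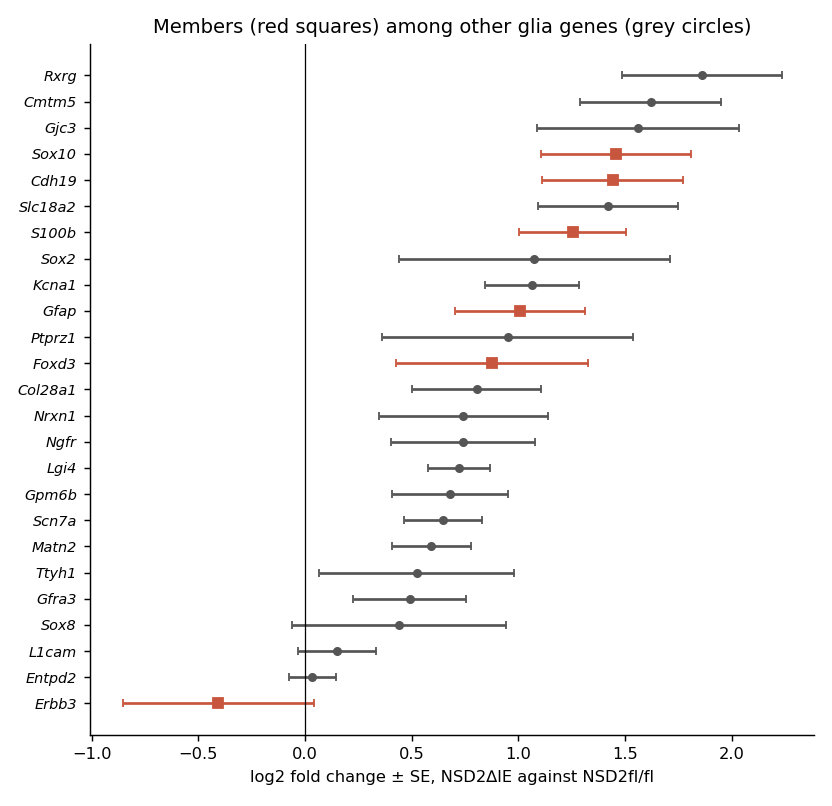
Log2 fold change with its SE (x axis, NSD2∆IE against NSD2fl/fl) of the 6 enteric glia genes (red squares) and 19 tested genes of the wider glia list (grey circles), sorted by value. Sox10, Cdh19 and S100b lie in the upper part of the order and Erbb3 is the lowest of all.

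A list of 11 genes known as SOX10 targets was read beside Sox10. Their median log2 fold change was 0.23, and without NSD2∆IE replicate 3 it was -0.06. The list includes Erbb3, itself a member, and the abundant genes Pmp22 and Mbp, which are also among the myelin genes below. Which cells made their RNA is not shown in whole colon, so this median is no measure of SOX10 targets in glia alone. An unadjusted p under 0.05 was found for 2 of 11, both higher, Ret among them, against 8.15% of all genes higher. The 8 myelin genes as a whole had a median of 0.22. Of these, 2 (Drp2 and Mag) had an unadjusted p under 0.05, both higher, against 8.15% of all genes higher. The range of the summed level of the 8 was 369 to 468 CPM in NSD2fl/fl and 369 to 437 CPM in NSD2∆IE. Pmp22 alone, with means of 333 and 315 CPM and overlapping groups, made up most of this sum, so the sum says little about the scarcer genes. Of the related SOX factors, Sox8 had a fitted change of 0.44 and Sox9, which the colon epithelium also makes, of -0.01. Both had overlapping groups. Melanocytes also use Sox10, and Dct and Pmel, their pigment genes in the files, reached no more than 30 and 52 counts per library.

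Signals that act on enteric neural crest cells were higher in NSD2∆IE for part of their list. Of 10 tested ligands and receptors, 7 had an unadjusted p under 0.05, all higher, against 8.15% of all genes higher. An adjusted p under 0.05 was found for 0 (3 higher with DESeq2, against 2.52% of its genes), and the median log2 fold change was 0.81. Gfra1, the co-receptor of GDNF, had 11.6, 5.85 and 6.68 CPM in NSD2fl/fl and 15.2, 21.5 and 19.2 CPM in NSD2∆IE. Ret, the signalling receptor of this family, had 16.3, 12.5 and 11.4 CPM against 19.4, 23.7 and 23 CPM. Both groups of values were without overlap, and both genes had an edgeR adjusted p of 0.302. Ednrb, the endothelin receptor of crest cells, had a log2 fold change of 0.23 and overlapping groups.

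Genes that mark a response of glia to injury were read beside Gfap. Of 13 such genes, 3 had an unadjusted p under 0.05, all higher (S1pr3, Gbp2 and Vim), against 8.15% of all genes higher. An adjusted p under 0.05 in edgeR or DESeq2 was found for 0, and the median log2 fold change was 0.14. Lcn2 and Serpina3n, widely used markers of reactive astrocytes, had fitted changes of 0.03 and 0.14 with edgeR adjusted p-values of 0.968 and 0.806. Gfap had one of 1.01, and the difference between Gfap and these genes was not tested. Counts from whole colon do not show which cells made the RNA of the 13 genes, so they are no measure of glia alone.

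The other cells of the colon wall were read from their own markers. Of the 17 enteric neuron genes, 13 had an unadjusted p under 0.05, all higher, against 8.15% of all genes higher. Their median log2 fold change was 0.95, with a summed level of 143 to 217 CPM in NSD2fl/fl and 277 to 342 CPM in NSD2∆IE. Of the 10 smooth muscle genes, 8 had an unadjusted p under 0.05, all higher, against the same 8.15%. Their median was 1.19, with a summed level of 1443 to 4145 CPM against 5156 to 11013 CPM. Of the 10 epithelial genes, 0 had an unadjusted p under 0.05, against 8.15% of all genes higher and 2.96% lower. Without overlap, 3 (Epcam, Cdh1 and Cdx1) were lower, against 7.28% of all genes, and 0 were higher, against 11.4%. The epithelial median was -0.28, and the summed level was 13171 to 21855 CPM against 12748 to 14527 CPM. The 6 endothelial genes had a median of 0.11. No gene of these 4 lists had an adjusted p under 0.05 in edgeR. DESeq2 gave 5 neuron and 2 smooth muscle genes higher, against 2.52% of its genes. Their part in the glia results was not tested, and in whole colon a change in the number of glia and a change in RNA per glial cell cannot be told apart.

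The glia genes were then set against these lists within each library, as the log2 CPM of the gene minus the mean log2 CPM of the list. Relative to neuron genes, S100b was -1.30, -0.98 and -1.17 in NSD2fl/fl and -0.94, -0.93 and -0.73 in NSD2∆IE. Sox10 was -1.22, -1.21 and -1.24 against -1.12, -0.49 and -0.64. Cdh19 was -0.53, -0.64 and -0.72 against -0.24, 0.15 and -0.30. These differences from neurons were higher in every NSD2∆IE library, by 0.28, 0.47 and 0.50 on average, while those of Gfap (-0.02), Foxd3 (-0.20) and Erbb3 (-1.19) overlapped between the groups. Relative to smooth muscle genes, all 6 overlapped. The average difference was 0.01 for S100b, 0.20 for Sox10, 0.23 for Cdh19, -0.29 for Gfap, -0.47 for Foxd3 and -1.47 for Erbb3. Relative to epithelial genes, S100b, Sox10, Gfap and Cdh19 remained without overlap, by 1.13 (Gfap) to 1.65 (Cdh19). These genes already did not overlap in CPM. The mean of the epithelial genes was highest in NSD2fl/fl replicate 2 (10.5 log2 CPM), where these genes were lowest, so this separation adds little. Relative to the same list, Erbb3 had a difference of -0.05 and Foxd3 of 0.95, both with overlapping groups. These values are descriptions, with no test, and the share of all genes without overlap on these scales is not given here.

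**Figure D5:**
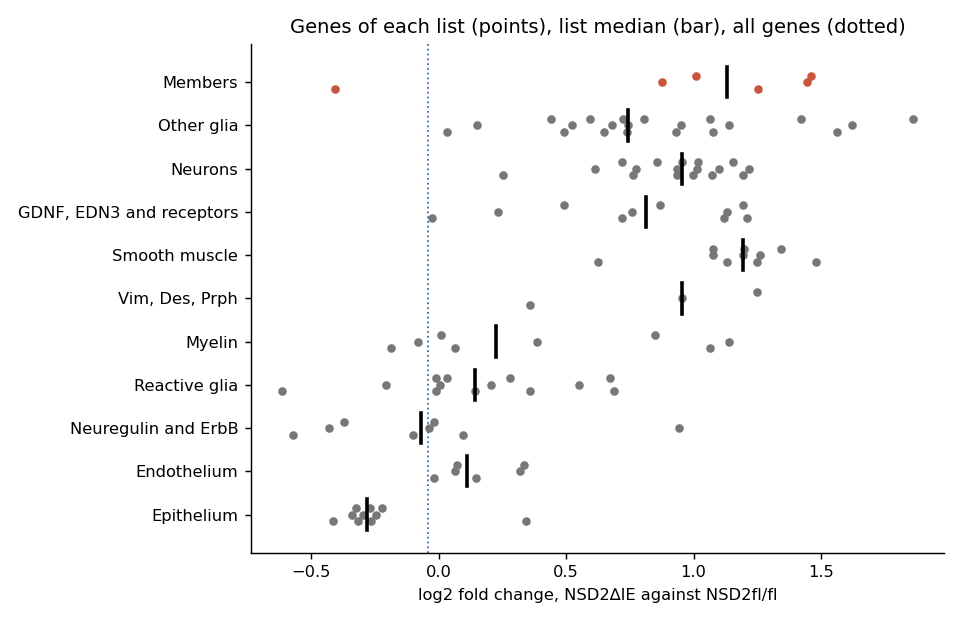
Log2 fold change (x axis, NSD2∆IE against NSD2fl/fl) of each tested gene (points) by list, with the list median (bar) and the median of all genes, -0.04 (dotted line). The glia, neuron and smooth muscle genes lie mostly above 0, the epithelial genes mostly below, and Erbb3 is the single member below 0.

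Within the 2 sets of libraries along the first principal component, the direction of S100b, Sox10, Gfap, Foxd3 and Cdh19 was the same, and that of Erbb3 was not. In the set of high Hoxb13, with 2 NSD2fl/fl libraries and 1 NSD2∆IE library, the log2 ratio of mean CPM between the genotypes was 0.82 for S100b, 0.62 for Sox10, 0.88 for Cdh19, 0.27 for Gfap and 0.26 for Foxd3. In the set of low Hoxb13, with 1 and 2 libraries, these ratios were 1.79, 2.30, 2.22, 1.44 and 0.87. Erbb3 had 0.08 in the first set and -1.11 in the second. The ratios of the 5 other genes were larger in the second set, which rests on NSD2fl/fl replicate 2 as its single NSD2fl/fl library, and no test was made within a set. With the set as a covariate in the fit of all 6 libraries, the unadjusted p was 0.00292 for S100b, 0.0106 for Sox10, 0.00463 for Cdh19 and 0.0374 for Gfap in edgeR, with adjusted p-values of at least 0.314.

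The genes most alike to each member across the 6 libraries were listed by Pearson r of log2 CPM among genes of average log2 CPM of at least 1. For Sox10 these were Stmn3 (0.999), Map6 (0.995), Prkd3 (0.995), Spn (0.995) and Bex2 (0.995). For S100b they were Ccdc85b (0.998), Wasf3 (0.997), Eno2 (0.996), Dennd5a (0.996) and Sgcb (0.995). For Cdh19 they were Bmx (0.994), Snap91 (0.992), Map6 (0.992), Gprasp1 (0.991) and Tspyl4 (0.99). Gfap was most alike to S1pr3 (0.988), Pou2f3 (0.982), Tac1 (0.981), Slc18a2 (0.979) and Rnd2 (0.976), and Foxd3 to Kcnip3 (0.992), Slc16a9 (0.989), Gm35851 (0.988), Kctd12b (0.985) and Calb2 (0.984). Erbb3 was most alike to D130037M23Rik (0.995), Erbb2 (0.994), Dnajb12 (0.994), Rflnb (0.992) and Clint1 (0.991). These values rest on 6 libraries and carry no test.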

How the data were processed

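Colon RNA sequencing was used from 3 NSD2fl/fl and 3 NSD2∆IE mouse libraries, grouped and numbered by the titles of the labels. The authors deposited whole-number read counts and FPKM values per gene symbol for each library. The submitters' processing notes name fastp, HISAT2, HTSeq, R 3.2.0 and build mm10, and the annotation and the use of strand are not given in the sources used here. For all 17863 genes with reads in every library, count and deposited FPKM implied 1 gene length, a whole number within 0.1 bases, shared by the 6 libraries. The chi-square statistic per degree of freedom was at least 35.5 for each pair of libraries, and all 6 were kept.

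Counts were tested with edgeR 4.0.16 in R 4.3.3 (filterByExpr, TMM factors, glmQLFit and glmQLFTest, two-sided, no covariates), with Benjamini-Hochberg adjustment over the 16347 genes tested and a threshold of 0.05. Standard errors are the size of the log2 fold change over the root of the F statistic, and 95% intervals used the degrees of freedom of the test. CPM values were scaled by TMM, and log2 CPM used a prior count of 2. Alternatives were other scalings, no filter on low counts, DESeq2 1.42.0, limma-voom (limma 3.58.1), limma on log2 FPKM with pseudocounts of 1 and 0.1, a replicate block, the principal component split and each library left out.

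The members and gene lists were chosen with earlier results of these data known, and the CCAAT letters were added after the promoter windows had been read. The genes named are the 6 members, the 5 genes most alike to each, up to 5 genes per list in order of p, genes whose role is described, and the targeted gene. Coordinates are from GENCODE M21 (GRCm38, the assembly of mm10), and no list was tested as a set. The values of 2 listed genes are not reported here, although counts and medians over the lists include them.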

Additional observations from a re-analysis of the deposited data

How the results depend on the processing

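The fitted direction of S100b, Sox10, Gfap, Foxd3 and Cdh19 was the same in all 16 alternatives, but its size was not. Log2(FPKM + 1) gave the lowest value for each, with 0.99 for S100b, 0.96 for Sox10, 0.44 for Gfap, 0.29 for Foxd3 and 0.41 for Cdh19, on a scale where the pseudocount shrinks the changes of low genes. With DESeq2 the log2 fold changes were 1.26 for S100b, 1.46 for Sox10 and 1.45 for Cdh19, with adjusted p-values of 0.00152, 0.0072 and 0.00388, so that 3 members passed in place of 0, and over all genes 426 were higher in place of 1 and 45 lower in place of 4. The cause was not tested. In the other alternatives 0 members passed. Log2(FPKM + 0.1) gave 2 higher genes over all genes. Erbb3 turned to 0.20 without NSD2fl/fl replicate 2. In the fits that each left out 1 library, the log2 fold changes ranged from 1.08 to 1.40 for S100b, 1.23 to 1.70 for Sox10, 0.81 to 1.26 for Gfap, 0.48 to 1.16 for Foxd3, -0.75 to 0.20 for Erbb3 and 1.20 to 1.75 for Cdh19, and the lower genes over all genes numbered 2 to 4, with 2 without NSD2fl/fl replicate 1 or 3. Without NSD2∆IE replicate 3 every member had an adjusted p of 0.99. Without NSD2∆IE replicate 1, 5 members had an unadjusted p under 0.05, Foxd3 among them, beside 1933 of 16672 genes tested. Without NSD2∆IE replicate 2 there were 3, beside 1005 of 16639 genes tested. With all 6 libraries there were 4, beside 1816 of 16347 genes tested. Library totals alone shifted the median of all genes by 0.127, log2(FPKM + 1) by 0.102 and log2(FPKM + 0.1) by 0.135 on the log2 scale.

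With the replicate number as a block, the log2 fold changes were 1.27 for S100b, 1.46 for Sox10, 0.97 for Gfap, 0.82 for Foxd3, -0.22 for Erbb3 and 1.47 for Cdh19. In that fit 0 members had an adjusted p under 0.05 and 4 an unadjusted one, and the block changed no call among them. Over all genes, 2235 of 16347 had an unadjusted p under 0.05 with the block, against 1816 without it. Deviations from the group means correlated by 0.501, 0.643 and -0.166 between libraries that share a number, and 4 of 6 libraries were closest to their own number, so a shared number was not taken as a pair. Foxd3, with 18 to 80 counts a library, is the member that depth limits most.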

Other observations

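The S100 family, to which S100b belongs, was read from the same fit. Of 14 other members in the files, 9 were tested, with a median log2 fold change of -0.32. Of these 9, 7 had a fitted change below 0, against 9202 of all 16347 genes tested. S100a6, S100a10 and S100a11, which epithelial and stromal cells make in quantity, had fitted changes of -0.32, -0.50 and -0.40 with overlapping groups. S100g, the X-linked gene of a calcium-binding protein of absorptive epithelium, had 1.77, 3.53 and 1.77 CPM in NSD2fl/fl and 12.3, 97.2 and 26.5 CPM in NSD2∆IE. S100g had a fitted log2 change of 4.27 (SE 0.829, adjusted p 0.302 in edgeR and 0.000669 in DESeq2). S100a8 and S100a9, genes of neutrophils, were too scarce to be tested.

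Prph and Des, intermediate filament genes of the same type as Gfap, belong to neurons and muscle. Prph had 21.5, 7.88 and 16.1 CPM in NSD2fl/fl and 27.6, 31.3 and 29.3 CPM in NSD2∆IE, and Des had 514, 113 and 541 CPM against 635, 785 and 1358 CPM. Both were without overlap between the groups, with log2 fold changes of 0.95 and 1.25 and edgeR adjusted p-values of 0.379 and 0.497.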
